A study of Homo sapiens with 24 samples.

Results

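Kinesins are the motor proteins that walk along microtubules or take them apart. The human count tables held 42 protein-coding kinesin genes among 58721 gene identifiers, found as every protein-coding gene whose symbol in the GENCODE annotation starts with KIF or KIFC and a number. They were divided by known role into 14 mitotic kinesins, 15 transport kinesins and 13 others. The kinesin CENPE carries another kind of symbol, so it was not a member and was read among the partners of the mitotic motors.

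The libraries were polyA-selected RNA-seq of A549 cells, a long-cultured human line that came from a lung adenocarcinoma. In the first experiment, cells received 25 nM siRNA against the transcription factor MYBL2 (siMYBL2, 4 libraries), siRNA against the transcription factor FOXM1 (siFOXM1, 4 libraries) or scrambled siRNA (siControl, 4 libraries), so both knockdowns share their controls. In the second, cells received both siRNAs together (siBoth, 3 libraries) or the scrambled siRNA of that experiment (siControl_Both, 3 libraries), and the total siRNA of the co-transfection is not stated. In the third, cells were given 20 μM FDI-6 for 24 h (FDI-6, 3 libraries) or served as its controls (control_FDI-6, 3 libraries). FDI-6 is a small molecule reported to block DNA binding by FOXM1. The study names its controls as DMSO in a supplement title and as untreated cells in a figure legend. All groups are a single cell line without an edited gene, and the siRNA lowers a transcript for a time and leaves the gene in place.

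Cells use mitotic kinesins to build the spindle, to move chromosomes and to separate the daughter cells, and most of their genes are transcribed late in the cell cycle. Transport kinesins carry vesicles, organelles and RNA towards the ends of microtubules and are needed throughout the cycle. MYBL2 and FOXM1 join the MuvB complex, which binds the CHR element of late cell cycle promoters, often near a CCAAT box that NF-Y binds. The comparisons here asked how each kinesin group responded when 1 or both factors were lowered or FDI-6 was given.

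Between 16487394 and 30140550 read pairs per library were counted on genes, and the 6 libraries of the FDI-6 experiment were the shallowest (up to 21039750 pairs). The share of pairs not aligned was 9.09 to 10.93% in siBoth and 7.68 to 7.92% in siControl_Both, against 1.73 to 3.03% elsewhere, and its part in the siBoth results was not tested. Levels are given as CPM, which scale each count to the size of its library, with TMM factors set over all 24 libraries together. MYBL2 stood at 4.61 to 8.74 CPM in siMYBL2 against 133 to 178 CPM in siControl, and at 6.23 to 9.9 CPM in siBoth against 158 to 192 CPM in siControl_Both. FOXM1 stood at 10.3 to 13.2 CPM in siFOXM1 against 108 to 139 CPM in siControl, and at 10.2 to 15 CPM in siBoth against 127 to 144 CPM in siControl_Both. The targeted transcript was thus low in every library labelled as its knockdown. In siMYBL2, FOXM1 itself lay at 58.2 to 89.9 CPM and fell by 0.73 on the log2 scale. With FDI-6, MYBL2 stood at 118 to 155 CPM against 189 to 199 CPM in control_FDI-6 (log2 fold change −0.51, edgeR adjusted p = 0.00105). FOXM1 stood at 91.2 to 112 CPM against 126 to 132 CPM (−0.37, edgeR adjusted p = 0.004). Both transcripts were thus lower with FDI-6 without overlap, by less than 1.5-fold. The study also reports less nuclear protein of both factors with FDI-6. Of the A549 markers, KRT8 (at least 1600 CPM) and ALDH1A1 (at least 1860 CPM) were high in every library. ALDH1A1 fell in siMYBL2 (log2 fold change −1.55) and siBoth (−1.59), and KRT8 (−0.81), KRT18 (−0.65) and AKR1B10 (−0.69) fell with FDI-6, and their part in the kinesin results was not tested. The marker KRT19 was less even, with 212 to 349 CPM in the first experiment and 37.7 to 119 CPM in the second. It was higher with FDI-6, at 64.9 to 76.7 CPM against 55.1 to 56.5 CPM (log2 fold change 0.35, edgeR adjusted p = 0.00549, under 1.5-fold). EPCAM ranged from 1.67 to 37.6 CPM and was highest in replicate 4 of each group of the first experiment.

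The promoters were read first, because the CHR and CCAAT letters can be compared between the kinesin groups without any expression value. RefSeq windows of 250 bases before to 50 after the start, on build GRCh38.p14, matched 34 of the 42 members, and KIF13B, KIF19, KIF21B, KIF26B, KIF27, KIF5A, KIFC2 and KIFC3 had none. The letters searched were TTTGAA or its reverse complement TTCAAA for CHR, and CCAAT or ATTGG for the CCAAT box, on both strands. A CHR and a CCAAT match can share end bases, and in the kinesin windows no such pair of matches did. For each member only the window nearest its canonical start was read, whereas no such choice was made among the windows of all genes. A CHR match was found in 10 of 14 mitotic windows (71.4%), 1 of 11 transport windows (9.09%) and 0 of 9 others, against 15.2% of all 35116 windows. A CCAAT match was found in 11 of 14 mitotic windows (78.6%), 4 of 11 transport windows (36.4%) and 3 of 9 others (33.3%), against 34.6% of all windows. Both occurred in 9 of 14 mitotic windows (64.3%) and in 5.9% of all windows. These matches describe letters in a window and are not shown to be bound.

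The 120 bases before the start of 4 genes are shown in lower case with CHR and CCAAT matches in capitals. KIF20A had the largest fall of all kinesins in siBoth, KIF11 carries both elements, KIF14 carries a CCAAT match here, and KIF5B is the transport kinesin with the highest level.
KIF20A, chr5:138178992-138179111, plus strand: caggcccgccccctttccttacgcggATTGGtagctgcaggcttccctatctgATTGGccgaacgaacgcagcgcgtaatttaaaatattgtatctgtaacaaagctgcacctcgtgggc
KIF11, chr10:92593010-92593129, plus strand: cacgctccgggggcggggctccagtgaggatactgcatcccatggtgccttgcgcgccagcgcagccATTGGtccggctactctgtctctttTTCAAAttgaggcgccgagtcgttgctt
KIF14, chr1:200620752-200620871, minus strand: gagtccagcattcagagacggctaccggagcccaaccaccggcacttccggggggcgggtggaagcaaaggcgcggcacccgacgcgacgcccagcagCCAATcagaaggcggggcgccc
KIF5B, chr10:32056426-32056545, minus strand: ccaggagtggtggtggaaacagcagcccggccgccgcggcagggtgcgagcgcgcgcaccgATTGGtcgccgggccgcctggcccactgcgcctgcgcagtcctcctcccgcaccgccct
In KIF20A the ATTGG matches began 94 and 67 bases before the start, and the window held no CHR letters. In KIF11, ATTGG began 53 and TTCAAA 28 bases before the start. In KIF14, CCAAT began 22 bases before the start and TTCAAA began 2 bases after it, which lies outside the printed stretch. KIF5B was the single transport gene with both, with TTTGAA 140 bases before the start, also outside the stretch, and ATTGG 59 before it. The plot of motif positions shows the remaining genes, among them KIF2C, whose window held neither motif.

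**Figure D1:**
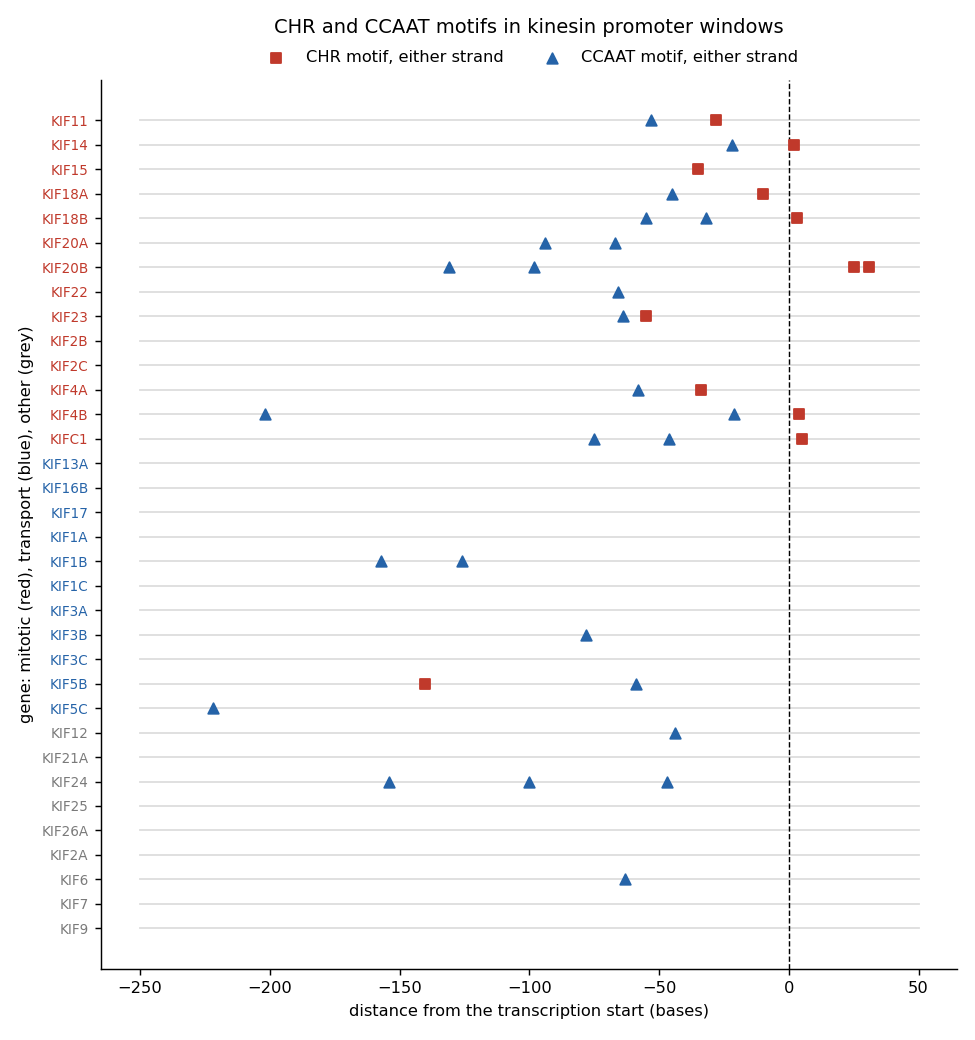
Positions of CHR (squares) and CCAAT (triangles) matches on either strand in the 34 kinesin promoter windows, in bases from the transcription start (dashed line). CHR matches fall in 10 of 14 mitotic windows (red names) and in 1 of 11 transport windows (blue names).

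In control cells the family spanned several orders of magnitude. Per kilobase of exon, which allows genes to be compared, KIF5B, the ubiquitous heavy chain of conventional kinesin, was highest in siControl at 78.3 ± 3.03 CPM per kb (SD, n = 4). KIF11, the motor that pushes the spindle poles apart, followed at 34.9 ± 2.34 CPM per kb (SD, n = 4). KIF1C, a Golgi and vesicle motor, stood at 34.8 ± 4.21 CPM per kb (SD, n = 4), within the spread of KIF11. KIF23, which bundles the central spindle in cytokinesis, had 28.7 ± 3.9 CPM per kb (SD, n = 4) and KIFC3, a minus-end motor of epithelial junctions, 26.1 ± 1.36 CPM per kb (SD, n = 4), and their spreads overlapped. KIF20A, a cytokinesis motor that brings the chromosomal passenger complex to the central spindle, had 21.8 ± 2.88 CPM per kb (SD, n = 4), close to KIF3B at 21.4 ± 1.54 CPM per kb (SD, n = 4). The order was not the same in control_FDI-6, which received no siRNA, where KIF5B had 52.9 ± 2.32, KIF1C 35.3 ± 1.23, KIF20A 33.5 ± 1.59 and KIF11 32.9 ± 0.815 CPM per kb (SD, n = 3 each).

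The 12 mitotic kinesins that passed the low-count filter lay between 5.37 CPM per kb (KIF15, a second spindle motor) and 34.9 CPM per kb. The transport kinesins spread wider, and the neuronal heavy chains KIF5A and KIF5C had only 0.0554 ± 0.0113 and 0.032 ± 0.0141 CPM per kb (SD, n = 4 each). KIF2B, a microtubule depolymerase, had 0 counts in all 24 libraries, which allows up to 0.0989 to 0.182 CPM per library (3 counts, counting error only). KIF4B, an intronless copy of KIF4A, had 46 counts in all and is uncertain because pairs that fit both genes are not counted. KIF19, KIF25, KIF26B and KIF6 were also under the filter, so 36 of the 42 members were tested in each treatment.

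**Figure D2:**
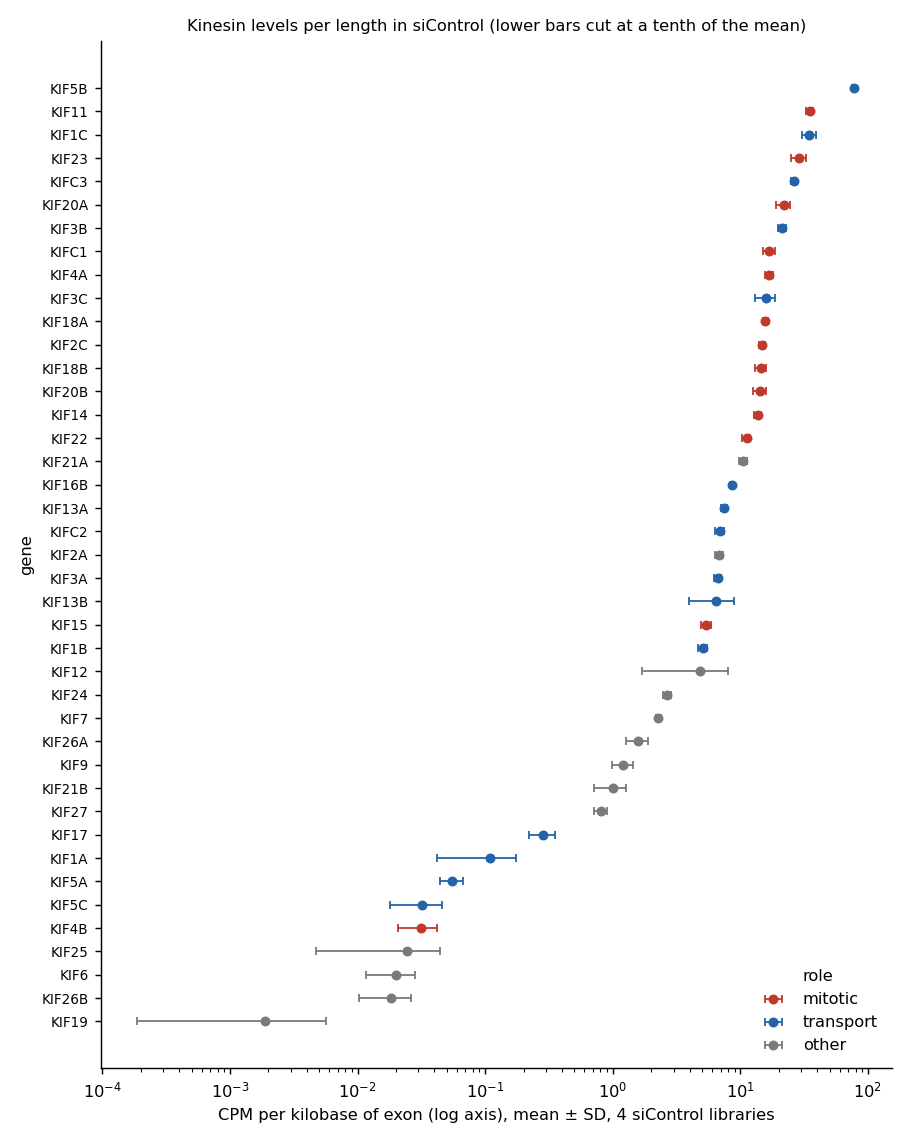
Level of each kinesin with any count in siControl, in CPM per kilobase of exon on a log axis (mean ± SD of 4 libraries, coloured by role, with lower bars shortened where the log axis needs it). KIF5B leads at 78.3 CPM per kb, and 3 transport kinesins (KIF1A, KIF5A and KIF5C) lie near the bottom beside the genes under the filter.

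Each treatment was compared with its own control by edgeR's quasi-likelihood test across all genes. A gene was called, and is said to have risen or fallen, at a Benjamini-Hochberg adjusted p under 0.05 together with a fold change over 1.5. Knockdown of MYBL2 lowered mitotic kinesins, and knockdown of both factors lowered more of them. In siMYBL2, 6 of the 12 tested mitotic kinesins fell and none rose, with a median log2 fold change of −0.53 and all 12 values negative. The count was 3 without siMYBL2 replicate 1, siMYBL2 replicate 4 or siControl replicate 3, and 4 without siControl replicate 2. In siFOXM1, 1 of 12 fell (median −0.15). In siBoth, 9 of 12 fell (median −0.86, all 12 negative), and with FDI-6 0 of 12 fell or rose (median −0.16).

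Among all genes tested, 3.52% fell in siMYBL2, 0.591% in siFOXM1, 3.64% in siBoth and 5.77% with FDI-6, and the medians over all genes lay between −0.01 and 0.02. Of the 15 transport kinesins, 0 fell in siMYBL2, siFOXM1 and FDI-6 and 1 fell in siBoth, while 2 rose in siMYBL2 and 1 with FDI-6. For comparison, 4.38% of all genes rose in siMYBL2, 0.0755% in siFOXM1, 2.8% in siBoth and 8% with FDI-6. Of the 9 tested other kinesins, 1 rose in siMYBL2, 1 rose in siBoth, and 1 rose and 1 fell with FDI-6. In bulk RNA, fewer cells in mitosis and less of a transcript in each cell cannot be told apart.

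**Figure D3:**
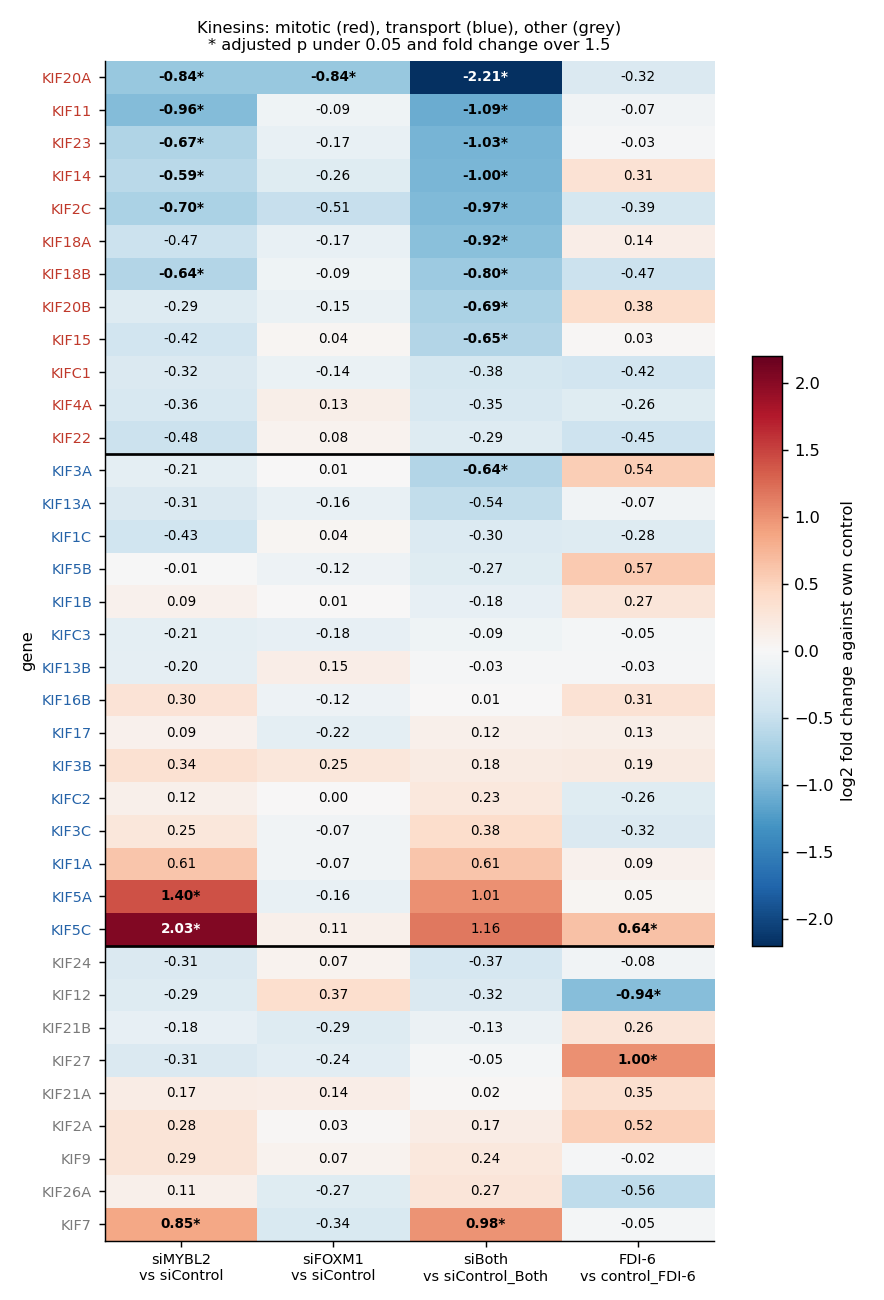
Log2 fold change of the 36 tested kinesins (rows, by role) in each treatment against its own control (columns), with asterisks at genes called. Mitotic rows are blue in siMYBL2 and siBoth, where KIF20A reaches −2.21 and all but KIF22 and KIF4A are darker than in siMYBL2, while most transport rows stay near 0.

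KIF20A (ENSG00000112984.11, chromosome 5, 138178719 to 138187723 of hg38) changed in all 3 knockdowns. Its level was 42.1, 43.3, 62 and 40.5 CPM in the siMYBL2 libraries and 46.4, 47, 51.5 and 43.8 CPM in the siFOXM1 libraries. The siControl libraries had 78.3, 78.5, 101 and 78.7 CPM. Every library of either knockdown therefore lay below every control, although siMYBL2 replicate 3 and siControl replicate 3 stood above the rest of their groups. The log2 fold change was −0.84 in siMYBL2 (SE, the standard error, 0.151, edgeR adjusted p = 0.0061) and −0.84 in siFOXM1 (SE 0.0967, edgeR adjusted p = 0.004). KIF20A was the 1 kinesin called in siFOXM1.

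In siBoth, KIF20A had 18.4, 23.2 and 22.7 CPM against 105, 109 and 83.3 CPM in siControl_Both, without overlap. The log2 fold change of −2.21 (SE 0.135, edgeR adjusted p = 0.000157) was the lowest of all kinesins. With FDI-6 it had 109, 109 and 92.2 CPM against 122, 130 and 134 CPM, again all below the controls. That log2 fold change was −0.32 (SE 0.0794, edgeR adjusted p = 0.00783), under the 1.5-fold limit. Of its exon bases, 5.3% overlap BRD8 and CDC23 on the opposite strand, and the strand setting of the counting is not stated.

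KIF11 (ENSG00000138160.5, chromosome 10, 92574105 to 92655395 of hg38) was called in siMYBL2 and siBoth. It had 81.6, 109, 108 and 81.4 CPM in siMYBL2 and 178, 176, 203 and 185 CPM in siControl, and these ranges do not overlap. In siFOXM1 it had 168, 173, 190 and 171 CPM, of which 3 lay below the lowest control and 1 among the controls. It fell in siMYBL2 (log2 fold change −0.96, SE 0.116, edgeR adjusted p = 0.000948) and gave −0.09 in siFOXM1 (edgeR adjusted p = 0.687). With the replicate number as a block in the fit, the siFOXM1 value was still −0.09 (edgeR adjusted p = 0.0431). In siBoth its levels of 57.2, 48.4 and 66 CPM all lay below the 120, 122 and 124 CPM of siControl_Both. That was a log2 fold change of −1.09 (SE 0.114, edgeR adjusted p = 0.00121). With FDI-6 the libraries had 187, 168 and 147 CPM around the controls at 173, 172 and 180 CPM (log2 fold change −0.07, edgeR adjusted p = 0.558).

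KIF23 (ENSG00000137807.15, chromosome 15), the motor of the centralspindlin complex, had 109, 126, 149 and 88.4 CPM in siMYBL2 and 180, 191, 222 and 161 CPM in siControl. All siMYBL2 libraries lay below all controls, and replicate 3 was highest and replicate 4 lowest in both groups. The log2 fold change was −0.67 (SE 0.162, edgeR adjusted p = 0.0208). The call was lost without siMYBL2 replicate 1 or 4 or without siControl replicate 2 or 3, where the log2 fold change was between −0.67 and −0.55. With the replicate block it was kept (log2 fold change −0.69, edgeR adjusted p = 1.8e-07). In siBoth, 84.1, 80.9 and 91.9 CPM stood against 176, 177 and 172 CPM in siControl_Both. This separation gave a log2 fold change of −1.03 (SE 0.0795, edgeR adjusted p = 0.000376). In siFOXM1 (161, 172, 198 and 145 CPM) and with FDI-6 (229, 195 and 170 CPM against 201, 192 and 212 CPM) the groups overlapped. The log2 fold changes were −0.17 in siFOXM1 and −0.03 with FDI-6 (edgeR adjusted p = 0.656 and 0.814). With the replicate block the siFOXM1 value was also −0.17 (edgeR adjusted p = 0.00016), under 1.5-fold. Of its exon bases, 3.5% overlap the antisense gene KIF23-AS1.

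KIF2C (ENSG00000142945.12, chromosome 1), a depolymerase that corrects wrong attachments at kinetochores, had 30.9, 34.6, 39.2 and 27.5 CPM in siMYBL2. The siFOXM1 libraries had 36.6, 37.2, 40.4 and 38.1 CPM, and siControl 50.9, 52.3, 58 and 54.3 CPM. Both knockdowns lay wholly below the controls. The log2 fold change was −0.70 in siMYBL2 (SE 0.109, edgeR adjusted p = 0.00321) and −0.51 in siFOXM1 (SE 0.0623, edgeR adjusted p = 0.00576), where the fold change stayed under 1.5. In siBoth, 25.4, 29.7 and 31.3 CPM stood against 53.4, 60.1 and 55.9 CPM, a log2 fold change of −0.97 (SE 0.102, edgeR adjusted p = 0.00121). With FDI-6 it had 64.2, 68.6 and 59.8 CPM against 88.6, 81.7 and 81.9 CPM, all lower (log2 fold change −0.39, edgeR adjusted p = 0.00201, under 1.5-fold).

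**Figure D4:**
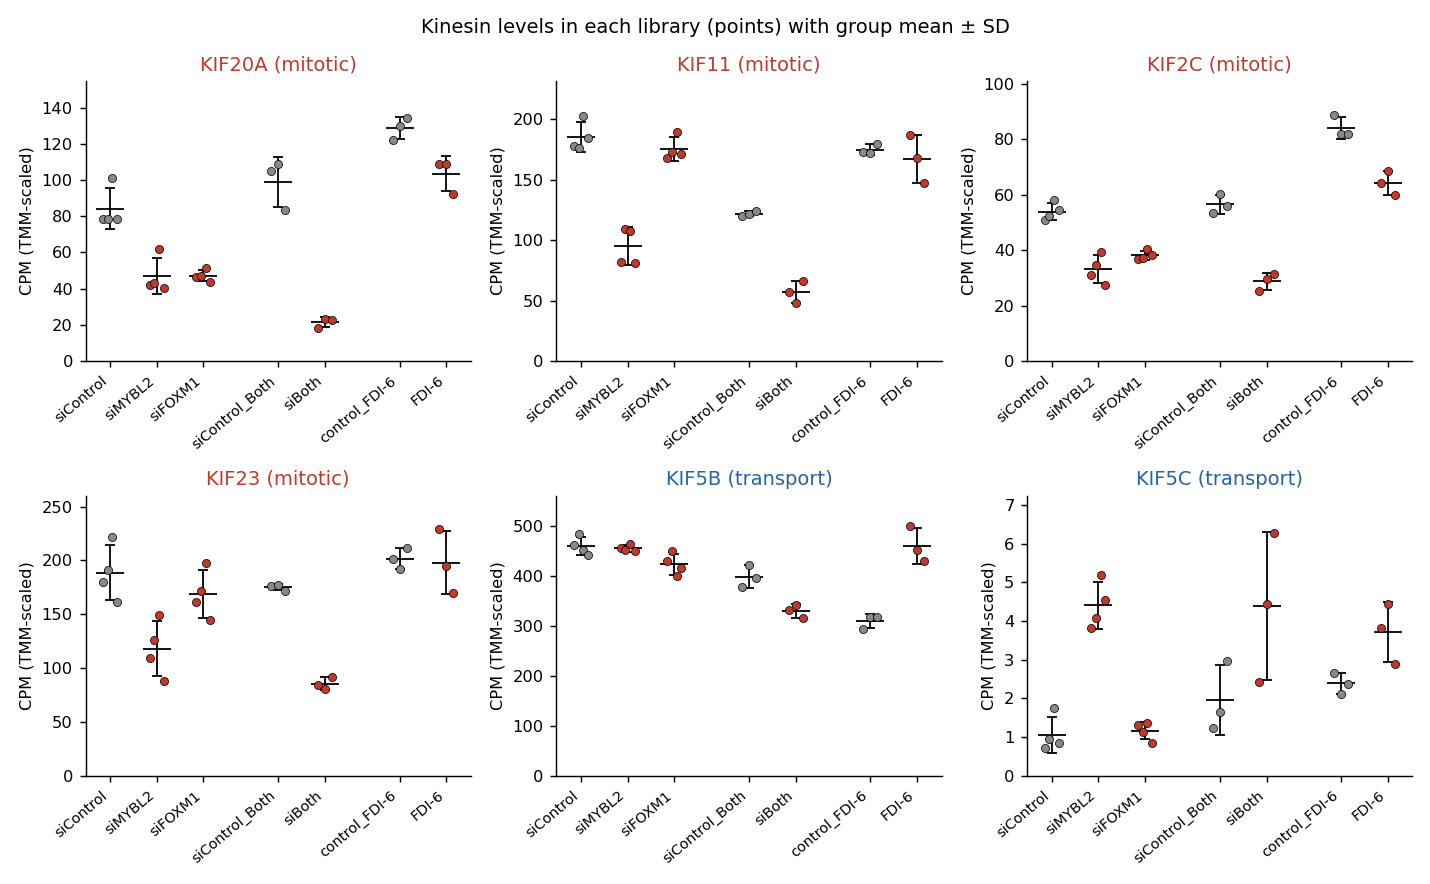
CPM of 4 mitotic and 2 transport kinesins in every library (points, grey for controls and red for treatments) with the mean and SD of each group, each axis starting at 0. KIF20A is lowest in siBoth (18.4 to 23.2 CPM), KIF11 lies below its controls in siMYBL2 and siBoth and overlaps them in siFOXM1, and KIF5B is higher with FDI-6 (429 to 499 CPM) than in its controls (294 to 318 CPM).

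KIF14, a cytokinesis motor that recruits citron kinase, and KIF18B, a plus-end motor that shortens astral microtubules, were the other mitotic calls in siMYBL2. KIF14 had 57.3, 71.1, 77.6 and 59.2 CPM in siMYBL2 against 90.2, 102, 103 and 105 CPM in siControl, without overlap (log2 fold change −0.59, SE 0.106, edgeR adjusted p = 0.00607). KIF18B had 37.4, 45.4, 57.7 and 34 CPM against 66.7, 67.7, 77.7 and 60.8 CPM, also without overlap (log2 fold change −0.64, SE 0.16, edgeR adjusted p = 0.0241). Both calls lay close to the thresholds. KIF14 was lost without siMYBL2 replicate 1 or 4 or siControl replicate 3 (−0.58 to −0.53) and with upper-quartile scaling (−0.54). KIF18B was lost without siMYBL2 replicate 1 or 4 or siControl replicate 1, 2 or 3 (−0.66 to −0.54). KIF15, KIF18A, KIF22 and KIF4A had an adjusted p under 0.05 but a fold change under 1.5 (log2 fold changes −0.42, −0.47, −0.48 and −0.36). KIF20B and KIFC1 passed neither limit (−0.29 and −0.32, edgeR adjusted p = 0.174 and 0.193). With the replicate block these 2 genes had −0.30 and −0.33 (edgeR adjusted p = 0.00034 and 0.00112), still under 1.5-fold.

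In siBoth, KIF14 had 40.5, 37.7 and 37.2 CPM against 78.8, 77.5 and 74 CPM in siControl_Both, which makes a log2 fold change of −1.0 (SE 0.078, edgeR adjusted p = 0.000389). KIF18A, which dampens chromosome movements at the metaphase plate, had 28.4, 22.9 and 38.8 CPM against 54.4, 55.6 and 60 CPM (log2 fold change −0.92, SE 0.171, edgeR adjusted p = 0.0137). KIF18B had 42, 55.5 and 56.2 CPM against 82.8, 99 and 86.6 CPM (log2 fold change −0.80, SE 0.129, edgeR adjusted p = 0.00772). In each case the siBoth libraries lay below all controls. The same held for KIF20B, a relative of KIF20A that acts in abscission, with 43.6, 34.4 and 42.8 CPM against 62.1, 69.9 and 63.7 CPM (log2 fold change −0.69, SE 0.11, edgeR adjusted p = 0.00739). It held as well for KIF15 with 16.3, 16.1 and 17.7 CPM against 23.5, 27.3 and 27.8 CPM (log2 fold change −0.65, SE 0.11, edgeR adjusted p = 0.00944), a call lost with upper-quartile scaling (−0.58). The mitotic kinesins not called were KIFC1, a minus-end spindle motor, and the chromosome-arm motors KIF4A and KIF22 (log2 fold changes −0.38, −0.35 and −0.29, edgeR adjusted p = 0.0448, 0.0639 and 0.132). With the replicate block these log2 fold changes were the same and stayed under 1.5-fold (edgeR adjusted p = 0.000847, 0.00136 and 0.00457).

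With FDI-6, no mitotic kinesin passed both criteria, and 8 of the 12 had an adjusted p under 0.05 with a smaller fold change, in both directions. Small p-values were common with FDI-6, where 7270 of all 15240 genes tested had an unadjusted edgeR p under 0.05. That count uses an unadjusted p, unlike the 8, and the all-gene count at the adjusted threshold is not given. The 8 therefore cannot be set against all genes, and no conclusion about the group is drawn from them. KIF14 was higher, with 93.9, 83.4 and 78.3 CPM against 65.8, 69.1 and 70.7 CPM (log2 fold change 0.31, edgeR adjusted p = 0.00989). KIF20B was higher as well, with 114, 98.1 and 85.3 CPM against 73.6, 71.4 and 82.2 CPM (log2 fold change 0.38, edgeR adjusted p = 0.0102). The treated libraries of both genes lay above all controls. KIF18B (76.1, 92.5 and 90.5 CPM against 116, 125 and 117 CPM) was lower, at −0.47 (edgeR adjusted p = 0.00122). KIF22, KIFC1, KIF2C, KIF20A and KIF4A were also lower, with log2 fold changes between −0.45 and −0.26.

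Summed over the group, mitotic kinesins reached 714 ± 116 CPM (SD, n = 4) in siMYBL2, 976 ± 67.1 CPM (SD, n = 4) in siFOXM1 and 1090 ± 78.7 CPM (SD, n = 4) in siControl. The sums were 536 ± 41 CPM (SD, n = 3) in siBoth against 976 ± 33.5 CPM (SD, n = 3) in siControl_Both, and 1150 ± 103 CPM (SD, n = 3) with FDI-6 against 1260 ± 27.1 CPM (SD, n = 3). The highest siMYBL2 and siBoth libraries (852 and 583 CPM) lay below their lowest controls (1030 and 953 CPM), whereas siFOXM1 overlapped siControl. Transport kinesins summed to 1570 ± 45.2 CPM (SD, n = 4) in siMYBL2 and 1640 ± 39.3 CPM (SD, n = 4) in siControl. In siBoth they summed to 1490 ± 117 CPM and in siControl_Both to 1630 ± 62.1 CPM (SD, n = 3 each), with overlap. The ratio of the mitotic to the transport sum was 0.39 to 0.52 in siMYBL2 against 0.641 to 0.714 in siControl, and 0.32 to 0.418 in siBoth against 0.594 to 0.603 in siControl_Both. With FDI-6 the transport sum was 1500 ± 42.1 CPM against 1380 ± 15.9 CPM in its controls (SD, n = 3 each), and the ratio was 0.677 to 0.857 against 0.887 to 0.938, both without overlap. KIF5B, KIF1C and KIFC3 made up between 53.6 and 67.6% of the transport sum in every library, so that sum mostly follows these 3 genes.

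**Figure D5:**
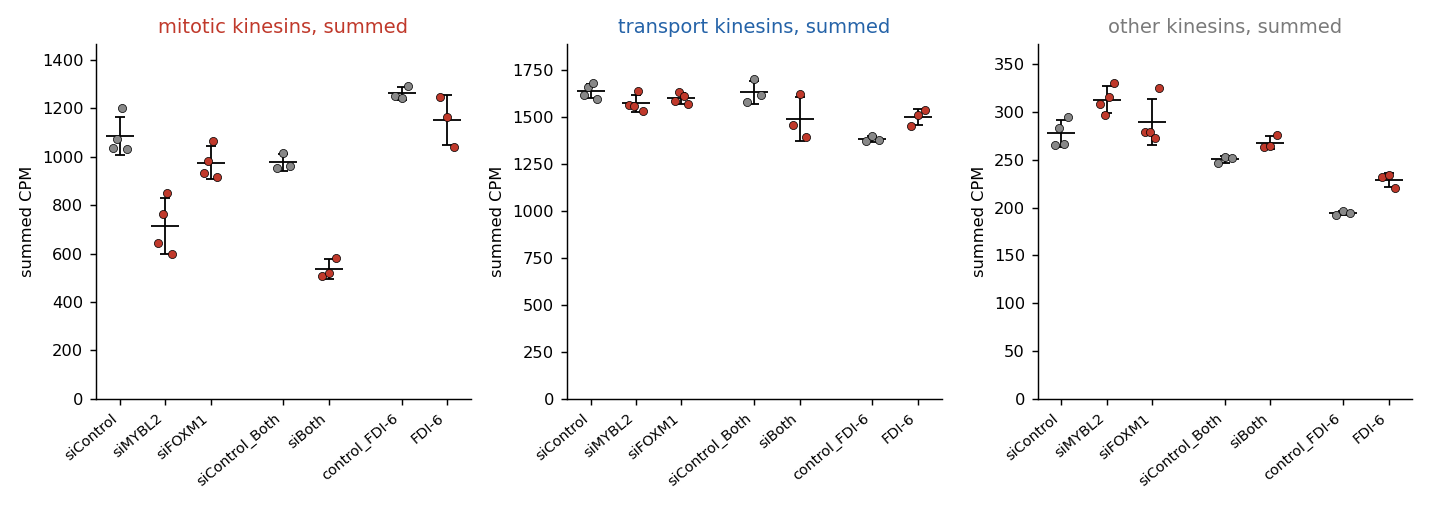
Summed CPM of the mitotic, transport and other kinesins in every library (points) with the mean and SD of each group, each axis starting at 0. Mitotic sums are lower in siMYBL2 (598 to 852 CPM) and siBoth (507 to 583 CPM) than in their controls, and transport sums with FDI-6 (1460 to 1540 CPM) lie above their controls (1370 to 1400 CPM).

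Among transport kinesins, the abundant KIF5B (ENSG00000170759.10, chromosome 10) had 456, 451, 463 and 449 CPM in siMYBL2, 429, 449, 400 and 415 CPM in siFOXM1 and 462, 483, 451 and 442 CPM in siControl. The 3 groups overlapped (log2 fold changes −0.01 in siMYBL2 and −0.12 in siFOXM1). With the replicate block the siFOXM1 value was also −0.12 (edgeR adjusted p = 0.00198), under 1.5-fold. In siBoth, 332, 342 and 315 CPM lay below 377, 422 and 395 CPM in siControl_Both, without a call (log2 fold change −0.27, edgeR adjusted p = 0.0722). With the replicate block it was −0.27 as well (edgeR adjusted p = 0.00597), still under 1.5-fold. With FDI-6, 499, 451 and 429 CPM lay above 294, 318 and 318 CPM, a log2 fold change of 0.57 (SE 0.0678, edgeR adjusted p = 7.76e-05) that stayed under 1.5-fold. Without FDI-6 replicate 3 it was 0.61 and was called.

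KIF5C and KIF5A, at levels near 1 CPM in siControl, rose in siMYBL2. KIF5C (ENSG00000168280.16, chromosome 2) had 3.82, 4.07, 5.18 and 4.53 CPM in siMYBL2 against 0.705, 0.948, 1.74 and 0.845 CPM in siControl (log2 fold change 2.03, SE 0.272, edgeR adjusted p = 0.00166). KIF5A (ENSG00000155980.11, chromosome 12) had 1.73, 1.59, 1.97 and 1.89 CPM against 0.497, 0.644, 0.767 and 0.803 CPM (log2 fold change 1.40, SE 0.204, edgeR adjusted p = 0.00238). Every siMYBL2 library exceeded every control for both genes. In siFOXM1 they overlapped the controls, with log2 fold changes of 0.11 and −0.16. In siBoth, KIF5C had 2.43, 4.44 and 6.26 CPM against 1.24, 1.64 and 2.97 CPM, with overlap (log2 fold change 1.16, edgeR adjusted p = 0.101). KIF5A had 0.911, 2.37 and 2.53 CPM against 0.551, 1.07 and 1.24 CPM, with overlap (log2 fold change 1.01, edgeR adjusted p = 0.17). Both rose in siBoth when the replicate number was a block (log2 fold changes 1.17 and 1.01, edgeR adjusted p = 0.000188 and 0.00593).

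The same block added KIF1A, a neuronal vesicle motor, in siMYBL2 (log2 fold change 0.64, edgeR adjusted p = 0.00508 against 0.342 without it). KIF1A had 2.09, 2.71, 2.24 and 4.71 CPM against 1.12, 1.78, 1.18 and 3.68 CPM, and replicate 4 was highest in both groups. Of the neuronal markers, STMN2 was at 0 in all libraries and TUBB3 had 2.93 to 3.4 CPM in siMYBL2 against 2.49 to 3.62 CPM in siControl. With FDI-6, KIF5C had 3.82, 4.43 and 2.89 CPM against 2.66, 2.12 and 2.37 CPM, all above the controls, and rose by 0.64 on the log2 scale (SE 0.221, edgeR adjusted p = 0.0389). That call was lost without FDI-6 replicate 2 (0.49) and without control_FDI-6 replicate 1 (0.72), 2 (0.56) or 3 (0.63), with upper-quartile scaling, and in DESeq2 (adjusted p = 0.0958).

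KIF3A (ENSG00000131437.15, chromosome 5), which pairs with KIF3B or KIF3C as kinesin-II for transport in cilia and along axons, was the 1 transport kinesin that fell. It had 22.7, 21.3 and 21.4 CPM in siBoth against 32.6, 32.5 and 36.6 CPM in siControl_Both (log2 fold change −0.64, SE 0.0938, edgeR adjusted p = 0.00544). The groups did not overlap, and the call was lost without siControl_Both replicate 3 (−0.58) and with upper-quartile scaling (−0.56). Its partners KIF3B and KIF3C had log2 fold changes of 0.18 and 0.38 in siBoth (edgeR adjusted p = 0.192 and 0.0303), neither called. With FDI-6, KIF3A had 45, 52.6 and 50.3 CPM against 33, 32.2 and 36.1 CPM, all above the controls (log2 fold change 0.54, edgeR adjusted p = 0.000662, under 1.5-fold). The remaining transport kinesins were not called in any treatment, with log2 fold changes from −0.43 (KIF1C) to 0.61 (KIF1A) in siMYBL2 and from −0.54 (KIF13A, an endosome motor) to 0.61 (KIF1A) in siBoth.

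Among the others, KIF7 (ENSG00000166813.14, chromosome 15), a ciliary regulator of Hedgehog signalling, had 20.9, 22.6, 23.4 and 22.6 CPM in siMYBL2 against 12.9, 12.6, 12.7 and 11.5 CPM in siControl. The groups were far apart relative to their spread, and it rose (log2 fold change 0.85, SE 0.0791, edgeR adjusted p = 0.000323). In siFOXM1 it had 10.3, 11.2, 9.91 and 8.08 CPM, below every control but not called (log2 fold change −0.34, edgeR adjusted p = 0.224). With the replicate block that value was also −0.34 (edgeR adjusted p = 0.0014), under 1.5-fold. In siBoth, 13.9, 25.4 and 20.4 CPM stood against 8.49, 9.64 and 12.1 CPM (log2 fold change 0.98, SE 0.228, edgeR adjusted p = 0.0294). That call was lost without siBoth replicate 2 (0.77) or 3 (0.94) and without siControl_Both replicate 1 (0.87) or 2 (0.95). Of its exon bases, 10.8% overlap TICRR on the opposite strand, which fell by 0.86 in siMYBL2 and by 0.97 in siBoth on the log2 scale.

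KIF27, a close relative of KIF7, rose with FDI-6, from 4.72, 5.4 and 3.56 CPM to 10.4, 8.97 and 8.07 CPM (log2 fold change 1.00, SE 0.177, edgeR adjusted p = 0.00111). Genes on the opposite strand cover 10.7% of the exon bases of KIF27. KIF12, a kinesin of epithelial tissues, fell with FDI-6, from 7.54, 9.94 and 9.65 CPM to 3.76, 5.13 and 5.23 CPM (log2 fold change −0.94, SE 0.175, edgeR adjusted p = 0.0015). Neither gene overlapped between the groups. KIF2A, a depolymerase of neurons and spindle poles, and KIF26A had adjusted p-values under 0.05 with FDI-6 but smaller fold changes (log2 fold changes 0.52 and −0.56). In the first experiment KIF12 was highest in replicate 4 of each group (21.6, 37.4 and 29.2 CPM), as EPCAM was. FOXJ1, the marker of multiciliated cells, rose in siMYBL2 (log2 fold change 2.23), where KIF7 rose and KIF12 and KIF27 were not called. It fell with FDI-6 (log2 fold change −2.61), where KIF12 fell, KIF27 rose and KIF7 was not called. Its levels were low, at 1.12 to 3.46 CPM in siMYBL2 against 0.211 to 0.732 CPM in siControl. With FDI-6 they were 0 to 0.334 CPM against 1.06 to 1.51 CPM. The 6 markers of other cell types summed to 21.7 to 44.5 CPM in siMYBL2, 18.4 to 31.9 CPM in siControl, 23.2 to 49.1 CPM in siFOXM1, 40.7 to 65.8 CPM in siBoth and 36.1 to 47.5 CPM in siControl_Both. They summed to 7.34 to 13.2 CPM with FDI-6 and 21.7 to 24.2 CPM in its controls, and COL1A1 made up most of the sum. The part of these markers in the KIF7, KIF12 and KIF27 results was not tested.

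The single knockdowns were compared directly in a fit of their 12 libraries. KIF11 was lower in siMYBL2 than in siFOXM1 (log2 difference −0.89, SE 0.103, edgeR adjusted p = 7.35e-05) and was the 1 mitotic kinesin of 12 called, against 4.52% of all genes lower. All 12 had negative differences (median −0.40), against 50.4% of all genes. KIF22 (−0.57), KIF18B, KIF23, KIF4A, KIF15, KIF14 and KIF18A (−0.31) had an adjusted p under 0.05 but a fold change under 1.5. Without siMYBL2 replicate 3, 4 mitotic kinesins were called. KIF5A (1.55), KIF5C (1.91) and KIF7 (1.18) were higher (edgeR adjusted p = 0.00014, 0.000206 and 7.52e-06), against 5.83% of all genes. KIF20A differed by −0.01 (SE 0.133, edgeR adjusted p = 0.976) and KIF2C by −0.20 (SE 0.0953, edgeR adjusted p = 0.142), which does not show that the knockdowns act alike on them. With the replicate block KIF2C differed by −0.21 (edgeR adjusted p = 0.00795), under 1.5-fold. With the replicate block, KIF1A (0.70) and KIF12 (−0.62) were called too (edgeR adjusted p = 0.00168 and 1.31e-05).

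The effect of siBoth was compared with that of siMYBL2, each against its own control. KIF20A was the 1 kinesin called, among 0.159% of all genes with a lower effect in siBoth and 0% with a higher one. Its log2 difference was −1.37 (SE 0.222, edgeR adjusted p = 0.022, and 3.79e-06 with the replicate block). Without the block the call was lost when siControl replicate 1 or 2, siBoth replicate 1 or 2, or siControl_Both replicate 1 or 2 was left out (log2 difference −1.42 to −1.29, edgeR adjusted p = 0.0648 to 0.0775). The other 11 mitotic kinesins had differences between −0.45 (KIF18A) and 0.19 (KIF22), none of them called. With the replicate block, KIF18A (−0.47), KIF14 (−0.40), KIF20B (−0.40) and KIF23 (−0.34) had an edgeR adjusted p under 0.05 but a fold change under 1.5. The same held for the transport kinesins KIF3A (−0.43), KIF16B (−0.29), KIF1B (−0.28) and KIF5B (−0.26). Knockdown of FOXM1 in addition to MYBL2 cannot be told apart here from other differences between the experiments.

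The effect of FDI-6 was compared with that of siFOXM1 in the same way. KIF5B (log2 difference 0.69, SE 0.094, edgeR adjusted p = 0.000217) and KIF27 (1.23, SE 0.242, edgeR adjusted p = 0.00283) had the more positive effect with FDI-6, against 7.32% of all genes. No kinesin had the more negative effect, against 4.18% of all genes, but with the replicate block KIF12 did (log2 difference −1.29, edgeR adjusted p = 2.38e-05). KIF20A differed by 0.52 and KIF14 by 0.56 (edgeR adjusted p = 0.0157 and 0.0019), under the 1.5-fold limit. The MYBL2 transcript had −0.51 with FDI-6 and −0.06 in siFOXM1 (log2 difference −0.46, edgeR adjusted p = 0.0554). Its part in these differences was not tested.

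Proteins that work with the mitotic kinesins were read from a list of 12. In siMYBL2 4 of 12 fell, namely CENPE, a kinetochore kinesin (−1.15), AURKB and INCENP of the chromosomal passenger complex (−0.89 and −0.88), and the mitotic kinase PLK1 (−0.71). In siFOXM1 0 of 12 were called. In siBoth 6 of 12 fell, with CENPE at −1.51, INCENP at −1.09, AURKB at −0.97, the spindle protein NUSAP1 at −0.79, PLK1 at −0.78 and TPX2, which activates Aurora A on the spindle, at −0.61. With FDI-6, NUSAP1 (−0.93) and the passenger subunit BIRC5 (−0.62) fell. The shares that fell were 33.3% in siMYBL2, 50% in siBoth and 16.7% with FDI-6, against 3.52%, 3.64% and 5.77% of all genes. The medians of the list were −0.43, −0.08, −0.50 and −0.23. PRC1, the cargo of KIF4A, was counted at only 1.68 ± 0.336 CPM (SD, n = 4) in siControl, so its values in this list are uncertain. NUSAP1 was also counted at low levels, with 3.76 to 4.85 CPM in siControl. With FDI-6 it had 1.34 to 1.89 CPM against 2.32 to 3.93 CPM in control_FDI-6. Its falls, and the 16.7% with FDI-6 that counts it as 1 of 2 calls, are therefore uncertain too.

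Of 16 light chains, adaptors and opposite motors of transport, 15 were tested. In siMYBL2 1 rose, the scaffold MAPK8IP1 (0.77), and with FDI-6 2 rose, the scaffold SPAG9 (0.69) and the dynein heavy chain DYNC1H1 (0.68). These are 6.67% and 13.3% of the list, against 4.38% and 8% of all genes that rose, so they are read as no result about the list. None was called in siFOXM1 or siBoth, and the list medians were 0.15, 0, −0.03 and 0.13 in the order siMYBL2, siFOXM1, siBoth and FDI-6. A list of 49 G2/M-phase genes without kinesins had 13 that fell in siMYBL2, 5 in siFOXM1, 25 in siBoth and 4 with FDI-6. The last is 8.16% of the list, near the 5.77% of all genes, and the others are 26.5%, 10.2% and 51.0% against 3.52%, 0.591% and 3.64%. Their medians were −0.40, −0.13, −0.60 and −0.17. Of 42 tested S-phase genes, 7, 1, 6 and 0 fell, and their medians were −0.33, −0.11, −0.35 and −0.06. The mitotic kinesins, at −0.53, −0.15, −0.86 and −0.16, lay nearer to the G2/M than to the S-phase list in all 4 treatments, which is a description of medians without a test. With KIF2A counted as mitotic the FDI-6 median was −0.07, nearer to the S-phase list.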

How the data were processed

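The authors trimmed reads (TrimGalore), mapped the pairs onto hg38 (STAR) and assigned them to genes of GENCODE V29 (HTSeq). They deposited 1 table of raw counts per library, in whole read pairs for each gene. Versions and the strand setting are not given in the sources used here. HTSeq drops pairs that fit several genes, so similar or overlapping genes are counted in part. HTSeq's summary rows, 18.47 to 26.17% of pairs, were left out.

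Of 58721 identifiers, 58207 matched GENCODE V44, and 514 did not. Counts were analysed with edgeR 4.0.16 (R 4.3.3), with TMM scaling, edgeR's low-count filter and the quasi-likelihood test, each comparison on its own groups, in place of the DESeq2 that the study used. Between 15240 and 16065 genes were tested per treatment. The script was tested on simulated data. The standard error is the log2 fold change divided by the root of F. DESeq2 1.42.0, other scalings and filters, glmTreat, the replicate block, KIF2A as a mitotic kinesin and leaving out each library were the alternatives.

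Members and lists were chosen with earlier results of these data known. Values are given for the members named in the request (KIF11, KIF20A, KIF23, KIF2C and KIF5B) and for every member called in a treatment. Cell cycle lists came from Seurat 5.3.0, and promoters from RefSeq. Replicate numbers come from the labels. In the 3 knockdown comparisons, libraries with the same number shared their deviation from the group means (correlation over genes 0.537 or more for each pair), and with FDI-6 they did not (mean −0.0807). No libraries of a group agreed within sampling noise (chi-square per gene 3.57 or more). The study calls its replicates biological. Counting precision is low for genes near 1 CPM.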

Additional observations from a re-analysis of the deposited data

Results flagged for a closer look

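Within groups of 4 libraries, 3 values of 48 sets examined stood apart from their group by Dixon's criterion, of which chance gives about 1 in 20. They were KIF18A at 46.4 CPM in siMYBL2 replicate 1, KIF20A at 62 CPM in siMYBL2 replicate 3 and KIF20A at 101 CPM in siControl replicate 3. The KIF20A values are from the replicate with the same number in both groups.

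Effects that differed by a test were KIF11 (log2 difference −0.89), KIF5A (1.55), KIF5C (1.91) and KIF7 (1.18) between siMYBL2 and siFOXM1, KIF20A (−1.37) between siBoth and siMYBL2, and KIF5B (0.69) and KIF27 (1.23) between FDI-6 and siFOXM1, with the edgeR adjusted p-values given above.

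For some of the 16 members whose values are given, every library lay above its controls in one treatment and below them in another. These differences were not tested, and how often all genes show this was not counted. Outside those 16, KIF3C showed it too, with 0.38 in siBoth and −0.32 with FDI-6. KIF14 had log2 fold changes of −0.59 in siMYBL2 and −1.0 in siBoth but 0.31 with FDI-6. KIF20B had −0.69 in siBoth and 0.38 with FDI-6. KIF3A had −0.21 in siMYBL2 and −0.64 in siBoth but 0.54 with FDI-6, and KIF5B had −0.27 in siBoth and 0.57 with FDI-6. KIF7 had −0.34 in siFOXM1 and 0.98 in siBoth.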

How the results depend on the processing

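RLE scaling and a minimum of 10 counts in every library changed no call of a named kinesin. Testing against a 1.5-fold change itself with glmTreat left 2 kinesins in siMYBL2 (KIF5A and KIF5C), 0 in siFOXM1, 4 in siBoth (KIF20A, KIF11, KIF14 and KIF23), 0 with FDI-6, and 0 in both comparisons of effects between experiments. For all genes it left 199, 14, 128 and 496 in the treatments, 431 between the single knockdowns, and 4 and 275 between the effects. With the replicate block, all-gene calls went from 1269 to 1991 in siMYBL2, from 106 to 401 in siFOXM1, from 1019 to 1849 in siBoth, and from 27 to 271 for siBoth against siMYBL2. Kinesin calls with the block were 10, 1, 13 and 3, and beside the changes given above it changed 2 kinesin calls with FDI-6, where numbers do not pair the libraries (KIF5C out at 0.63, KIF26A in at −0.59). DESeq2 called 163 genes in siFOXM1. Without a filter, 1545 genes were called in siBoth and 4 kinesins for FDI-6 against siFOXM1. Kinesin calls in siBoth were 11 in the main fit (1 higher), 13 without a filter (3 higher) and 12 in DESeq2 (2 higher). With KIF2A counted as mitotic, the FDI-6 median was −0.07.

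Upper-quartile scaling turned KIF5B in siMYBL2 to 0.04, moved the share of higher genes among calls from 43.5 to 59.4% in siBoth and from 63.7 to 51.4% for FDI-6 against siFOXM1, and left 5 and 8 falling mitotic kinesins in siMYBL2 and siBoth. Leaving out a library gave 56 to 115 calls in siFOXM1 and 587 to 1097 in siBoth. It gave 7 to 28 calls and 0 to 1 kinesins for siBoth against siMYBL2, 4 to 7 kinesins between the single knockdowns, and 2 to 5 kinesins with FDI-6 and for FDI-6 against siFOXM1. KIF5B in siMYBL2 ranged from −0.05 to 0.01, and with FDI-6 KIF11 from −0.15 to 0.02 and KIF23 from −0.15 to 0.06. The cause of these changes was not tested. Depth limits KIF5A, with 12 to 61 counts per library, and KIF17, with 16 to 47.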
